A study of Mus musculus with 16 samples.

Results

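The mRNAs described here encode the enzymes that activate and oxidize fatty acids and the enzymes of the tricarboxylic acid (TCA) cycle. The 40 genes were chosen by name, as acyl-CoA synthetases, enzymes of mitochondrial and peroxisomal beta-oxidation, subunits of pyruvate dehydrogenase and enzymes of the cycle with 2 cytosolic counterparts. All 40 had at least 1 probe on the array and passed the filter on dim probes, with 53 probes between them, and 37 had a probe well above background on all 16 arrays. They are 40 of 30214 gene names on the array and of 19338 genes tested.

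Fatty acids are bound to coenzyme A, carried into mitochondria as carnitine esters and shortened in repeated rounds of dehydrogenation, hydration, dehydrogenation and thiolysis. Each round yields acetyl-CoA, which the TCA cycle oxidizes, and reduced carriers, whose electrons pass to the respiratory chain. Hepatocytes rely on this route in fasting, and insulin turns them towards fatty acid synthesis instead. eIF6 is a factor that binds the large ribosomal subunit and keeps it from joining the small subunit prematurely.

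The study measured mRNA in AML12 cells, a non-tumourigenic line of mouse hepatocytes that came from a mouse transgenic for human TGF-alpha and is labelled male. A lentivirus had delivered either a scramble shRNA or one that targets eIF6, and puromycin had selected the cells that took it up. Both groups received doxycycline, which switches the shRNA on, and were then stimulated with insulin during 1 h. Its concentration is 100 nM according to the methods, while the labels hold both nM and mM as its unit. Both groups also grew in a medium that already held insulin and dexamethasone. Cytoplasmic extracts were run on sucrose gradients, and the heavier fractions were pooled as polysomal RNA and the lighter fractions as subpolysomal RNA. The 4 groups were scramble polysomal, scramble subpolysomal, eIF6 shRNA polysomal and eIF6 shRNA subpolysomal, with 4 biological replicates each and 1 one-colour array per sample. Every signal below is the log2 of an intensity that was set to the same distribution on all 16 arrays. It therefore gives the level of an mRNA relative to the other mRNAs of the same fraction, and not the amount of RNA on polysomes. In such bulk RNA, fewer cells of a type and less RNA per cell cannot be told apart.

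The shRNA target was checked first. The log2 signal of Eif6 on polysomes was 12.96, 12.94, 12.96 and 12.94 in scramble cells and 11.92, 12.00, 11.85 and 11.81 in eIF6 shRNA cells, a difference of -1.05 (SE 0.08, adjusted p = 1.45e-07, limma). In subpolysomes the difference was 0.01 (SE 0.08, adjusted p = 0.916, limma), so the loss was seen in polysomal RNA. These values are means over probes that differed. Probes designed on the RefSeq mRNA had polysomal differences of -1.38 and -1.26, and a dimmer one designed on another cDNA record had -0.52. Of the hepatocyte markers, Hnf4a, Foxa2, Trf, Krt8, Krt18, Ttr, Afp and Apoe were well above background on all arrays. Alb was well above background on 7 arrays, Apoa1 on 2 and Fgb on none. Of 7 fibroblast or stellate cell markers tested (Lrat did not pass the filter), all 7 fell on polysomes of eIF6 shRNA cells and 6 fell in subpolysomes, by a median of -2.96 and -1.54 on the log2 scale. The mean log2 signal of these markers was 12.01 to 12.54 on scramble and 9.22 to 9.72 on eIF6 shRNA polysomal arrays, and 11.69 to 11.82 and 10.32 to 10.55 on the subpolysomal arrays. Some markers of other kinds moved too: Ttr rose by 1.15 on polysomes and 1.33 in subpolysomes, Afp by 1.26 and 1.19, Foxa2 fell by 0.40 in subpolysomes, and the leukocyte marker Csf1r fell by 1.67 and 1.17 (all called by limma). The part of these markers in the values below was not tested.

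Among the polysomal arrays, those of replicate 4 stood apart for these genes. The scramble array of replicate 4 had the highest signal of its group for 36 of 40 members, with a median deviation from the group mean of 0.455, and the other scramble polysomal arrays had medians of -0.068, -0.131 and -0.272. In eIF6 shRNA cells the array of replicate 4 was the highest for 35 of 40 members, with a median of 0.345 beside -0.258, -0.16 and 0.036. Over all genes the median deviation was -0.025 and -0.023 on these arrays. The subpolysomal arrays of replicate 4 had medians of -0.097 and -0.021. The mean signal of the fibroblast markers was also highest on the polysomal arrays of replicate 4 in both groups (12.54 and 9.72). Polysomal values of the members are therefore given below also without the scramble array of replicate 4. The eIF6 shRNA array of replicate 4 was high as well, and leaving out the scramble array alone raised the median polysomal change. The median of the members was 0.258 with all arrays, 0.397 without the scramble array, 0.278 without both and 0.121 without the eIF6 shRNA array alone.

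**Figure D1:**
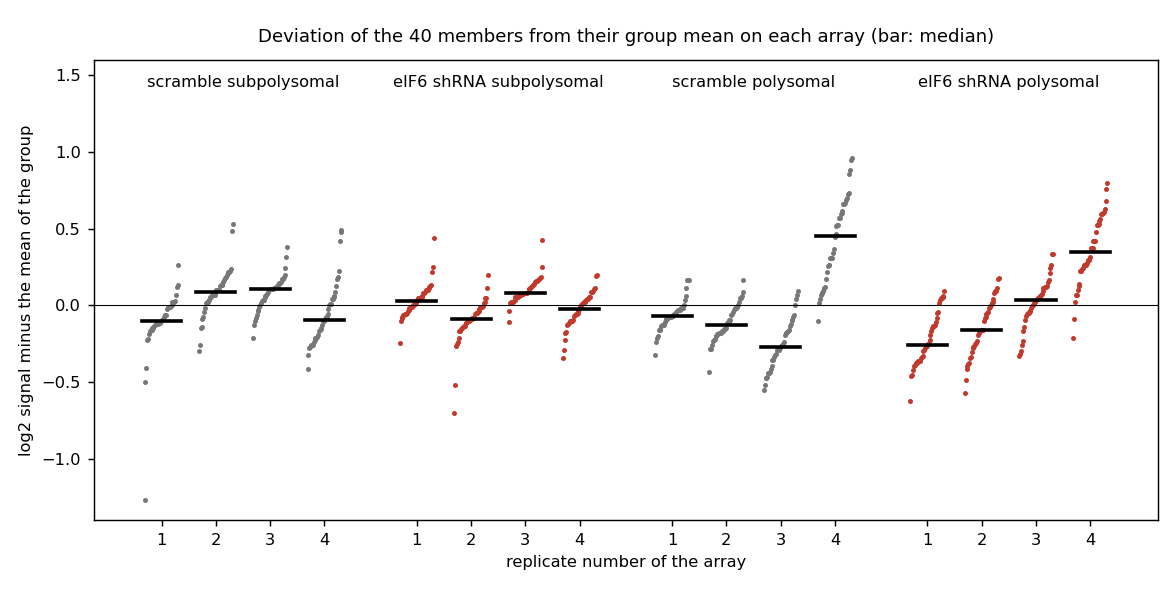
Each point is the log2 signal of 1 of the 40 members on an array minus its mean over the 4 arrays of the group, and the bar is the median of the members (0.455 on the scramble and 0.345 on the eIF6 shRNA polysomal array of replicate 4). Arrays are set by group and replicate number, with scramble in grey and eIF6 shRNA in red.

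Whether depletion of eIF6 moved these mRNAs on polysomes was asked first. On polysomes of eIF6 shRNA cells, 3 of 40 members rose relative to the other mRNAs and none fell (limma, adjusted p under 0.05). These were Cpt2, the carnitine palmitoyltransferase of the inner mitochondrial membrane, Echs1, the short-chain enoyl-CoA hydratase, and Idh3b, a subunit of NAD-dependent isocitrate dehydrogenase. Of all genes tested, 11.1% rose and 10.7% fell, and the share of members that rose was 7.5%. The difference between these shares was not tested. At an unadjusted p under 0.05, 9 members (22.5%) were higher and none lower, beside 16.7% and 14.9% of all genes. The median change of the members was 0.26 on the log2 scale, beside 0.02 for all genes, and 9 members had values below 0. When arrays were scaled to spike-in RNA instead, the medians were -0.22 for the members and -0.47 for all genes. No member passed the test, beside 0.522% of all genes that rose and 5.44% that fell.

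The log2 signal of Cpt2 on polysomes was 6.46, 6.39, 6.58 and 7.27 in scramble cells and 7.11, 7.11, 7.65 and 7.68 in eIF6 shRNA cells. The groups overlapped, because the scramble array of replicate 4 lay above 2 of the eIF6 shRNA arrays. The change was 0.71 (SE 0.23, 1.64-fold, adjusted p = 0.0398, limma), and it was 0.91 (adjusted p = 0.00699, limma) without the scramble array of replicate 4. The call was lost without replicate 1, 2 or 3 (adjusted p = 0.102, 0.148 and 0.217, limma) and without the eIF6 shRNA array of replicate 4 (adjusted p = 0.102). It was also lost with the slide as a block (adjusted p = 0.0523) and when the brighter probe stood alone (adjusted p = 0.0889). With spike-in scaling and with no filter on dim probes the call was lost too, which makes 8 of 17 alternatives.

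The probes of Cpt2 are shown because the call rests on their mean. Both lie on the minus strand of chromosome 4 of mm9, and the first 30 of their 60 bases read, 5′ to 3′ as the files give them:
Cpt2 probe at chr4:107576591-107576650: gggttggaaagctaactcagctgtatttat
Cpt2 probe at chr4:107580325-107580384: attgtgaatccctcagaaatccaggcacat
The first probe was well above background on 16 arrays and had a polysomal difference of 0.50 (SE 0.20). The second was well above background on 14 arrays and had 0.92 (SE 0.31). In subpolysomes their values were 0.42 and 0.64.

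Echs1 had log2 signals of 13.49, 13.44, 13.32 and 13.58 on scramble and 13.83, 13.89, 13.52 and 13.88 on eIF6 shRNA polysomal arrays. Only the eIF6 shRNA array of replicate 3 lay within the scramble range, and the change was 0.32 (SE 0.09, 1.25-fold, adjusted p = 0.0203, limma). For Idh3b the signals were 11.88, 11.99, 12.08 and 12.09 in scramble and 12.27, 12.41, 12.25 and 12.34 in eIF6 shRNA cells. These groups did not overlap, and the change was 0.31 (SE 0.09, 1.24-fold, adjusted p = 0.0268, limma). Scaled to the spike-in probes, Echs1 and Idh3b had values of -0.15 and -0.13, a turn of direction against a median of -0.47 for all genes, and neither was called. Without replicate 1 or 2 neither was called, and without replicate 3 only Echs1 was.

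The number of members that passed moved with every replicate left out. Without the scramble polysomal array of replicate 4, 15 of 40 members rose and none fell, with a median of 0.40 beside 0.02 for all genes, of which 11.4% rose. Without replicate 4 in all groups 13 members rose (13.6% of all genes), and without both polysomal arrays of replicate 4 it was 12 (12.3% of all genes). Without replicates 1 and 2 in turn no member passed, beside 6.77% and 6.71% of all genes that rose. Without replicate 3 only Echs1 passed, beside 6.99% of all genes. These shares of all genes were lower than the 11.1% with all arrays. The 12 members that passed in addition to the first 3 when the scramble array was left out were Acaa1a, Acadl, Acadvl, Acsl4, Cpt1a, Cs, Dlat, Etfdh, Hadha, Idh2, Idh3g and Pdha1. Among them, Acadvl had a log2 difference of 0.53 with and 0.82 without that array (adjusted p = 0.208 and 0.0188, limma), Hadha of 0.43 and 0.67 (adjusted p = 0.16 and 0.00247) and Cs of 0.38 and 0.69 (adjusted p = 0.414 and 0.0295). Without both polysomal arrays of replicate 4, their values were 0.62, 0.58 and 0.47 (adjusted p = 0.0372, 0.00594 and 0.0341, limma).

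In subpolysomal RNA of eIF6 shRNA cells 6 of 40 members rose and none fell, beside 11.9% and 12.4% of all genes. The share of members that rose was 15%. At an unadjusted p under 0.05, 16 members (40%) were higher and none lower, beside 18.2% and 17.5% of all genes. The 16 include Ehhadh, which was well above background on no subpolysomal array, so its value cannot be read as a change. The median change was 0.31, beside 0.02 for all genes, and 7 members had values below 0. For 17 of 40 members (42.5%) all 4 eIF6 shRNA arrays lay above all 4 scramble arrays, which was so for 15.6% of all genes, and for 1 member, Dlst, they lay below, as for 15.9% of all genes. On polysomes the groups of 3 members did not overlap, all 3 higher in eIF6 shRNA cells (Acsl3, Acads and Idh3b), beside 11.1% of all genes in that direction and 11.4% in the other. Scaled to the spike-in probes, the subpolysomal medians were 0.05 for the members and -0.23 for all genes. No member was called, beside 0.222% of all genes called higher and 1.78% lower.

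The 6 members were Acsl1, Echs1, Etfb, Pdha1, Idh3b and Suclg1. Idh3b had log2 signals of 11.30, 11.31, 11.59 and 11.63 in scramble and 11.92, 11.92, 12.06 and 11.83 in eIF6 shRNA subpolysomes. The groups did not overlap, and the change was 0.47 (SE 0.09, 1.39-fold, adjusted p = 0.00166, limma). It was the only one of the 6 that kept its call when each replicate was left out in turn. Echs1 had signals of 12.67, 12.70, 12.70 and 12.66 in scramble and 13.19, 13.01, 13.18 and 12.99 in eIF6 shRNA cells, a change of 0.41 (SE 0.09, adjusted p = 0.00484, limma) with no overlap. Echs1 and Idh3b were the 2 members called higher in both fractions.

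Pdha1, the catalytic alpha subunit of pyruvate dehydrogenase, had log2 signals of 9.75, 9.92, 9.93 and 9.98 in scramble and 10.56, 10.31, 10.59 and 10.25 in eIF6 shRNA subpolysomes. The arrays did not overlap, and the change was 0.53 (SE 0.13, 1.44-fold, adjusted p = 0.00885, limma). Etfb, the beta subunit of the electron transfer flavoprotein that takes electrons from the acyl-CoA dehydrogenases, had signals of 10.62, 10.84, 10.94 and 10.68 in scramble and 11.15, 11.21, 11.26 and 11.13 in eIF6 shRNA cells. Here too all eIF6 shRNA arrays were higher, by 0.41 (SE 0.10, adjusted p = 0.00828, limma). Its 3 probes gave changes of 0.45, 0.19 and 0.60, and with the brightest probe alone the change of 0.19 was not called (adjusted p = 0.29).

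Suclg1, the alpha subunit of succinyl-CoA synthetase, had log2 signals of 11.63, 11.92, 11.94 and 11.91 in scramble and 12.28, 12.23, 12.37 and 12.06 in eIF6 shRNA subpolysomes. The groups did not overlap, and the change was 0.38 (SE 0.11, 1.30-fold, adjusted p = 0.0198, limma). Acsl1, an acyl-CoA synthetase abundant in liver, had signals of 6.78, 6.90, 7.03 and 6.96 in scramble and 7.16, 7.05, 7.39 and 7.27 in eIF6 shRNA cells. The groups did not overlap, and the change was 0.30 (SE 0.10, adjusted p = 0.0421, limma). It was not called with either replicate 1, 2 or 3 left out or under 6 other settings, and with spike-in scaling its value was -0.01. Without replicate 1 the calls of Echs1, Etfb, Pdha1 and Suclg1 were lost too (adjusted p = 0.0806, 0.0959, 0.12 and 0.202, limma). Suclg1 was also lost without replicate 2 or 3 (adjusted p = 0.102 and 0.0781, limma) and Pdha1 without replicate 3 (adjusted p = 0.0603). Without replicate 4, 16 members were called higher, beside 15.7% of all genes.

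**Figure D2:**
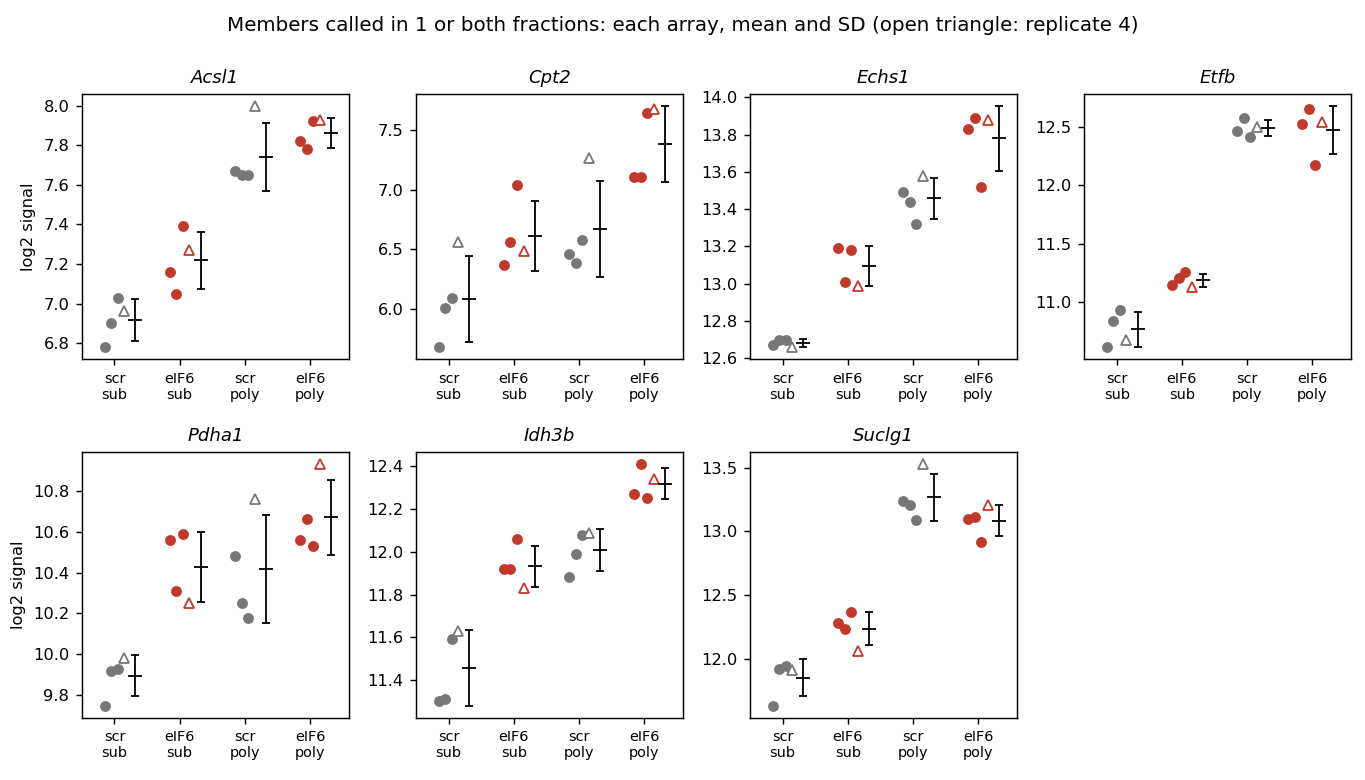
Log2 signal of the 7 members called in either fraction on each of the 16 arrays, with scramble (scr) in grey, eIF6 shRNA in red and open triangles for replicate 4; the black mark is the mean with its SD (n = 4). In subpolysomes (sub) the eIF6 shRNA arrays of 6 of them lie above all scramble arrays, and on polysomes (poly) only those of Idh3b do.

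By step of the pathway, each value below is the log2 difference between eIF6 shRNA and scramble cells, first on polysomes, then on polysomes without the scramble array of replicate 4, and last in subpolysomes. The second value keeps the eIF6 shRNA array of replicate 4, which was high too. With both of these arrays left out, the median of the members was 0.278 in place of 0.397. The first enzymes are the acyl-CoA synthetases, which join fatty acids to coenzyme A. The values were 0.12, 0.20 and 0.30 for Acsl1, 0.60, 0.77 and 0.31 for Acsl4 and 0.13, 0.09 and 0.00 for Acsl5. Acsl3 had 0.64 and 0.68 on polysomes, where its 4 eIF6 shRNA arrays lay above all scramble arrays without a call (adjusted p = 0.1, limma). In subpolysomes it had -0.27 and was well above background on 3 scramble arrays and 1 eIF6 shRNA array. Cpt1a, which forms acylcarnitines at the outer membrane and is the main point of control of the pathway, had 0.43, 0.67 and 0.33. Its groups in subpolysomes did not overlap, without a call (adjusted p = 0.329, limma).

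The acyl-CoA dehydrogenases make the first double bond, each for a range of chain lengths. The values were 0.53, 0.82 and 0.76 for Acadvl, which acts on very long chains, and 0.47, 0.69 and 0.41 for Acadl, which acts on long chains. Acadm, for medium chains, had 0.26, 0.44 and 0.27, and Acads, for short chains, 0.41, 0.42 and 0.41. With all arrays none of these 4 passed the test, and the lowest adjusted p was 0.0517 for Acads in subpolysomes (limma). Acad9, which also serves the assembly of respiratory complex I, had -0.06, 0.24 and -0.04, so that its polysomal sign turned without that array.

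In the later steps of the mitochondrial spiral, Hadha and Hadhb form the trifunctional protein. Hadha had 0.43, 0.67 and 0.27, and Hadhb 0.21, 0.44 and 0.42. Hadh, the short-chain hydroxyacyl-CoA dehydrogenase, had 0.14, 0.23 and 0.32, and Decr1, the dienoyl-CoA reductase needed for polyunsaturated chains, 0.19, 0.22 and 0.23. In subpolysomes the brighter probe of Decr1 had 0.465 (SE 0.112). The dimmer probe, well above background on 14 arrays, had -0.009 (SE 0.146). Acaa2, the thiolase of the matrix, had -0.16, 0.06 and -0.09, another turn of the polysomal sign. With both polysomal arrays of replicate 4 left out, its polysomal value was -0.06. Etfa, the partner of Etfb, had -0.01, 0.03 and 0.45, and Etfdh, which hands the electrons to ubiquinone, 0.35, 0.45 and 0.26. In peroxisomes, the thiolase Acaa1a had 0.52, 0.70 and 0.53 (adjusted p = 0.0588, 0.00671 and 0.0531, limma). Ehhadh, the bifunctional enzyme of the same organelle, was well above background on all polysomal and no subpolysomal array, and had 0.31 and 0.63 on polysomes.

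Of the pyruvate dehydrogenase complex, Dlat, the acetyltransferase core, had 0.29, 0.45 and 0.21, and Dld, the dihydrolipoamide dehydrogenase, 0.00, 0.19 and 0.19. Pdhb, the beta subunit of the first enzyme, had -0.11, -0.09 and -0.11 as the mean of 3 probes. One of them was well above background on no polysomal array, and the other 2, given with their sequences below, had -0.03 and 0.17 on polysomes and 0.06 and 0.03 in subpolysomes.

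In the cycle itself, citrate synthase (Cs) had 0.38, 0.69 and 0.38, and mitochondrial NADP-dependent isocitrate dehydrogenase (Idh2) 0.33, 0.45 and 0.40. Of the NAD-dependent enzyme, Idh3a had -0.22, -0.11 and 0.00 and Idh3g 0.18, 0.37 and 0.26, beside the calls of Idh3b. Ogdh and Dlst belong to the oxoglutarate dehydrogenase complex, and had 0.23, 0.45 and 0.19 for Ogdh and -0.35, -0.13 and -0.35 for Dlst. With all arrays Dlst had the lowest value of all members in both fractions, and neither was called (adjusted p = 0.255 and 0.228, limma). The succinyl-CoA synthetase subunit Suclg2 had -0.12, 0.02 and 0.11, and Sucla2 0.03, 0.10 and -0.05. Fumarase (Fh1) had 0.31, 0.51 and 0.43 and mitochondrial malate dehydrogenase (Mdh2) 0.14, 0.24 and 0.21. The cytosolic counterparts Idh1 and Mdh1 had 0.37, 0.57 and 0.63 and 0.38, 0.43 and 0.54.

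Across both fractions, 29 of 40 members had values above 0 in both, 5 below 0 in both (Acaa2, Acad9, Dlst, Idh3a and Pdhb), 4 (Etfa, Etfb, Suclg1 and Suclg2) above 0 in subpolysomes and below 0 on polysomes, and 2 (Acsl3 and Sucla2) the reverse. Without the scramble polysomal array of replicate 4 these numbers were 31, 3, 2 and 4, as Acaa2, Acad9, Etfa and Suclg2 turned above 0 on polysomes. The 29 and the 31 include Ehhadh, which was not well above background in subpolysomes. With both polysomal arrays of replicate 4 left out, Acaa2 (-0.06), Etfa (-0.05) and Suclg2 (-0.12) stayed below 0, and Acad9 had 0.07. The 22 members of fatty acid oxidation had median changes of 0.32 on polysomes and 0.32 in subpolysomes. The 18 members of pyruvate dehydrogenase and the TCA cycle, cytosolic counterparts included, had 0.20 and 0.24.

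**Figure D3:**
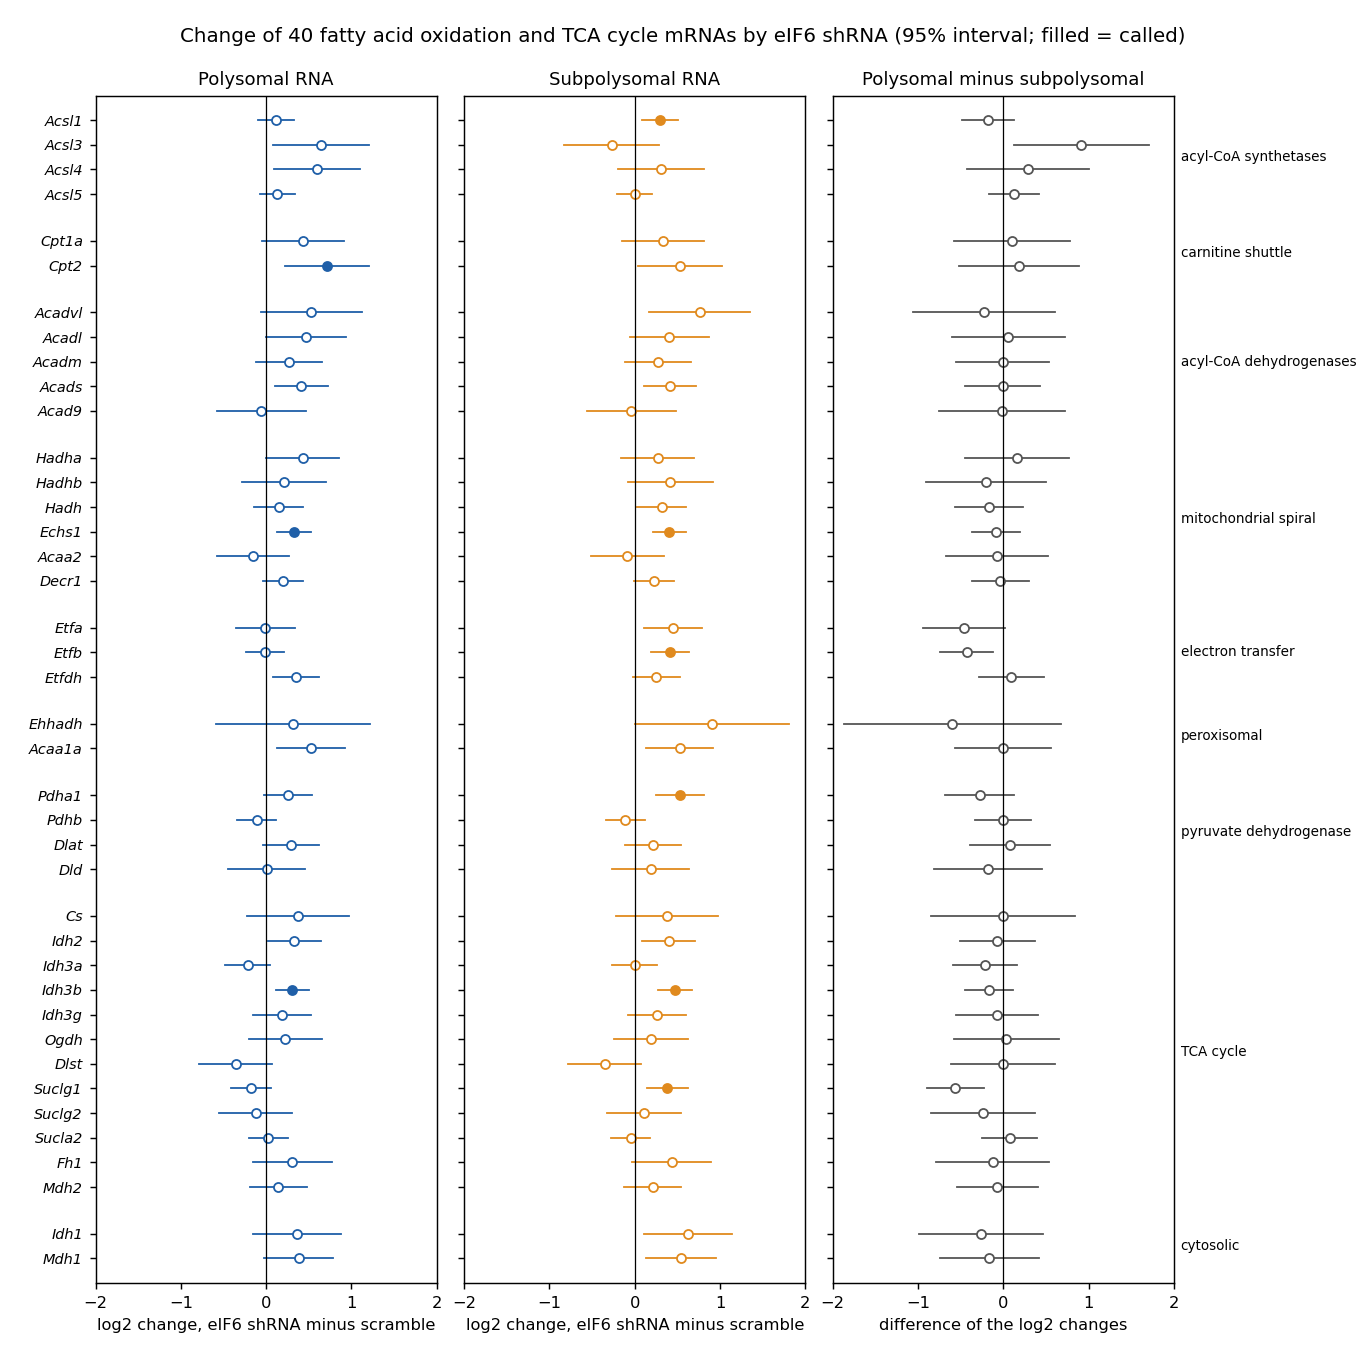
Log2 change of each member (eIF6 shRNA minus scramble, limma) in polysomal RNA, in subpolysomal RNA and as the difference of these changes, ordered by step of the pathway; bars are 95% intervals and filled points were called at an adjusted p under 0.05. Most points lie to the right of 0 in the first 2 panels, and none is filled in the third.

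Translational efficiency was compared as the polysomal change minus the subpolysomal change, and so shares its arrays with both. No member was called in it by limma, in either direction, beside 1.11% of all genes called lower and 0.398% called higher. At an unadjusted p under 0.05, 2 members (Suclg1 and Etfb, 5%) were lower and 1 (Acsl3, 2.5%) higher, beside 7.35% and 5.15% of all genes, and the methods' t-test gave the same numbers, with none left after adjustment. The median was -0.07, beside 0.02 for all genes, and 29 members had values below 0. The median was 0.05 without the scramble polysomal array of replicate 4, beside 0.02 for all genes, and 0.04 without replicate 1. It was -0.039 without both polysomal arrays of replicate 4 and -0.017 without replicate 4 in all groups. Without the eIF6 shRNA polysomal array of replicate 4 alone it was -0.175, so its sign depends on which arrays are left out. Suclg1 had the lowest unadjusted p, with a difference of -0.56 (SE 0.16, adjusted p = 0.105, limma; -0.47 without the scramble polysomal array of replicate 4), and it was called lower under 2 of the alternative settings. Etfa and Etfb, the subunits of one protein, had -0.46 (SE 0.23) and -0.43 (SE 0.14), and were not called (adjusted p = 0.434 and 0.195, limma). Ehhadh was well above background on no subpolysomal array, so its plotted value cannot be read as a difference. Acsl3 had the highest value, 0.91 (SE 0.37, adjusted p = 0.307, limma), and was dim in subpolysomes.

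Where these mRNAs lay on the gradient before depletion was taken from the scramble arrays, as log2 polysomal minus log2 subpolysomal signal. A value above 0 means that an mRNA made up more of the polysomal than of the subpolysomal RNA. Of 40 members 21 (52.5%) lay on the polysomal side and 2 (5%) on the subpolysomal side, beside 31.7% and 28.4% of all genes (limma). The median was 0.52, beside 0.04 for all genes. In eIF6 shRNA cells 18 members (45%) lay on the polysomal and 1 (2.5%) on the subpolysomal side, beside 32.2% and 28.7% of all genes, with a median of 0.35. Both counts on the polysomal side include Ehhadh, which was well above background on no subpolysomal array. It passed the filter on its polysomal arrays alone, so its call does not rest on a measured subpolysomal signal. Without the eIF6 shRNA polysomal array of replicate 4 it was 18 and 4, beside 31.4% and 27.9% of all genes, with a median of 0.23. Scaled to the 75th percentile, the scramble medians were 0.46 for the members and -0.34 for all genes, and 23 and 3 members were called, beside 21.2% and 43.8% of all genes. Without the scramble polysomal array of replicate 4, 19 members were on the polysomal side and 8 on the subpolysomal side, beside 30.9% and 28% of all genes.

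The electron transfer flavoprotein subunits lay far on the polysomal side in scramble cells, with differences of 1.80 for Etfa (SE 0.16) and 1.71 for Etfb (SE 0.10). Idh1 (1.52), Suclg1 (1.41), Mdh2 (1.38), Mdh1 (1.32), Decr1 (1.20) and Idh2 (0.98) followed, all called. For Ehhadh, which was not well above background in subpolysomes, polysomal signal was at least 1.81-fold higher in scramble and at least 2.18-fold higher in eIF6 shRNA cells. This bound sets the polysomal mean against the lowest signal that was well above background on each subpolysomal array, or the probe's own signal if higher. Further members on the polysomal side were Acsl1 (0.83), Echs1 (0.78), Acads (0.76), Suclg2 (0.71), Hadh (0.70), Acaa1a (0.64), Cpt2 (0.59), Idh3b (0.55), Pdha1 (0.52), Etfdh (0.52), Idh3a (0.51) and Idh3g (0.40).

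Subunits of one enzyme did not all lie alike. Of succinyl-CoA synthetase, Suclg1 and Suclg2 lay at 1.41 and 0.71 and Sucla2, the alternative beta subunit, at 0.16 (not called). Hadha lay at -0.64 (SE 0.20) and was called on the subpolysomal side, while Hadhb, its partner, lay at 0.53 (SE 0.23, not called). Without replicate 1 or 3 the call of Hadha was lost. The differences between these subunits were not tested. The 3 subunits of NAD-dependent isocitrate dehydrogenase lay at 0.40 to 0.55. Without replicate 4, Acad9, Acadl, Acsl4, Cpt1a, Cs, Dlat, Dlst and Ogdh were also called on the subpolysomal side, with values of -0.03 for Acadl to -0.49 for Acsl4 when all arrays were used.

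**Figure D4:**
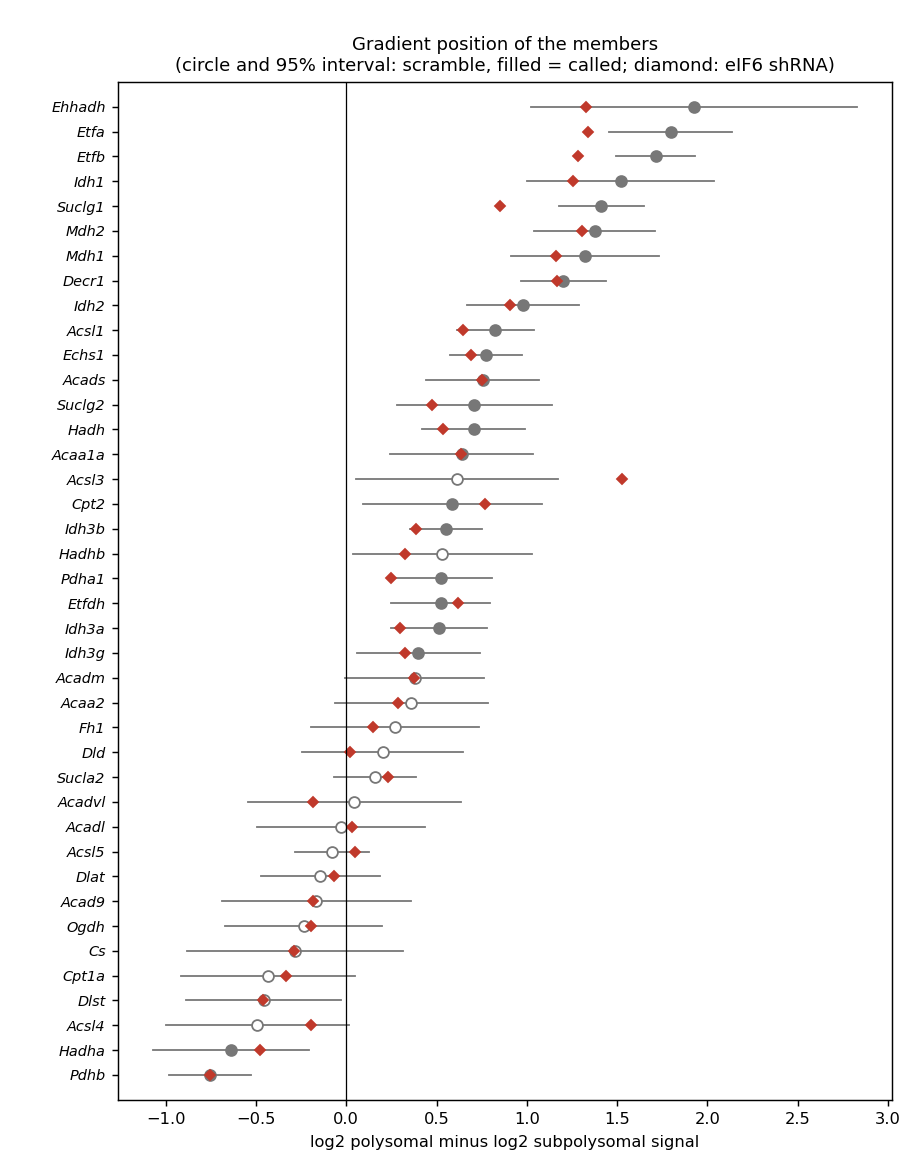
Difference between the log2 polysomal and log2 subpolysomal signal of each member, with circles and 95% intervals for scramble cells (filled where called, limma) and diamonds for eIF6 shRNA cells. In scramble cells 21 filled circles lie above 0 and 2, Hadha and Pdhb, below. Those above 0 include Ehhadh, which was well above background on no subpolysomal array.

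Pdhb owed its place on the subpolysomal side (-0.75, SE 0.11) to 1 of its 3 probes. The probes lie on the minus strand of chromosome 14 of mm9, and the first 30 of their bases are given for this reason, 5′ to 3′ as in the files:
Pdhb probe ending 972, chr14:8998548-8998607: gaatgcccccacagaaggtaacttatatgt
Pdhb probe ending 776, chr14:8998505-8998562: tctacatttgctgtttaattgttttgataa
Pdhb probe ending 775, chr14:9003605-9003664: gtgcagctatggtatgtaatatttatggag
The first 2 overlap on the genome and were designed on the RefSeq mRNA, and the third was designed on another cDNA record. In scramble cells the difference between the fractions was 0.69 (SE 0.23) for the probe ending 972 and 0.41 (SE 0.12) for that ending 776, both towards polysomes. The third probe was well above background on all 8 subpolysomal arrays and on no polysomal array, and was at least 8.22-fold higher in subpolysomes of scramble cells and at least 5.78-fold higher in those of eIF6 shRNA cells. When the brightest probe of each gene was used alone, Pdhb was not called on the subpolysomal side. Of the other 9 members with more than 1 probe, none had probes whose differences between the fractions had opposite signs in scramble cells.

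**Figure D5:**
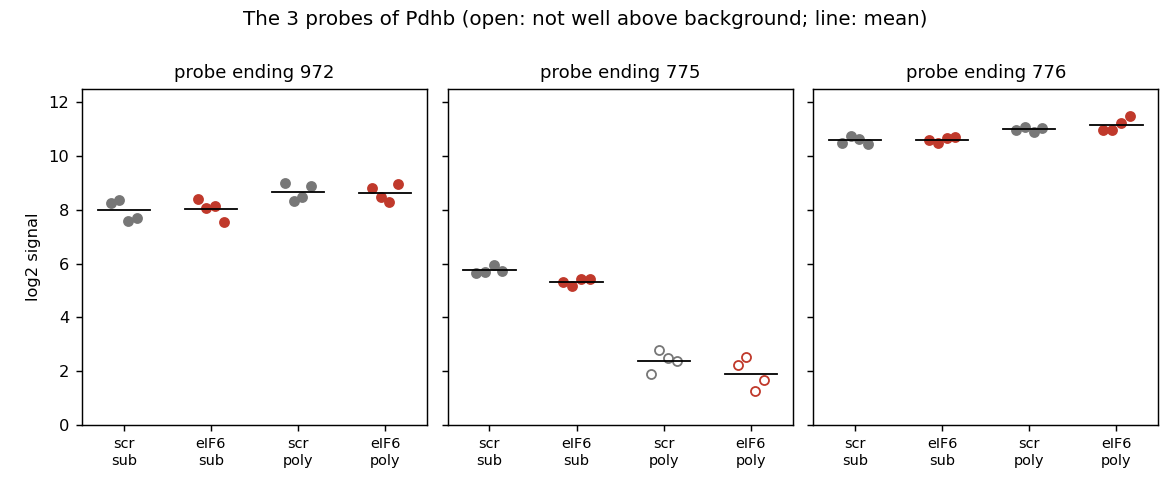
Log2 signal of the 3 probes of Pdhb on each array by group (scr, scramble; eIF6, eIF6 shRNA; sub, subpolysomal; poly, polysomal), with open symbols where a probe was not well above background and a line at the mean of 4 arrays. The probes ending 972 and 776 are higher on polysomes, and the probe ending 775 is above background in subpolysomes alone.

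Of 64 other genes of the pathway, 58 passed the filter, and Cd36, Slc27a2, Acsl6, Abcd2 and Ppargc1b were among those that did not. On polysomes 14 of the 58 rose and 3 fell, beside 11.1% and 10.7% of all genes, and in subpolysomes 14 rose and 1 fell, beside 11.9% and 12.4%. These are 24.1% and 5.17% of the 58 on polysomes, and 24.1% and 1.72% in subpolysomes. The other genes of peroxisomal oxidation rose in part, 6 of 12 in each fraction, with none that fell. Among them Acox2, the oxidase for branched chains, changed by 1.13 on polysomes and 1.10 in subpolysomes (adjusted p = 0.000143 and 0.000226, limma). Phyh, which starts the alpha-oxidation of phytanic acid, rose by 0.78 in subpolysomes.

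Of 8 regulators of fatty acid oxidation tested, 5 rose and 1 fell on polysomes. Ppargc1a, a coactivator that raises oxidative genes, changed by 1.99 on polysomes and 0.95 in subpolysomes (adjusted p = 1.4e-05 and 0.00769, limma). With the normexp background correction these values were 0.65 and 0.41. Ppargc1a was dim in scramble cells, with log2 signals of 3.33 to 4.04 on polysomes and 3.01 to 3.65 in subpolysomes. Its subpolysomal call was lost under 2 of 17 alternatives. Acacb, which makes the malonyl-CoA that inhibits carnitine palmitoyltransferase 1 at mitochondria, fell by 1.47 on polysomes and by 1.22 in subpolysomes (adjusted p = 2.93e-06 and 2.61e-05, limma). With normexp these were -0.45 and -0.29, and both stayed called. Prkaa2, a catalytic subunit of AMP-activated kinase, rose by 0.79 in both fractions (adjusted p = 0.0186 and 0.0175, limma). In each fraction its call was lost under 4 of 17 alternatives.

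Of 11 genes of pyruvate entry and the control of pyruvate dehydrogenase, Pdk2, a kinase that inhibits the complex, rose by 1.14 on polysomes and 1.27 in subpolysomes (adjusted p = 6.45e-05 and 2.83e-05, limma). Pdk3, a related kinase, fell by 0.52 on polysomes (adjusted p = 0.0031) and had a value of -0.12 in subpolysomes. Of the 8 other enzymes of mitochondrial beta-oxidation, Hsd17b10, a hydroxyacyl-CoA dehydrogenase of the matrix, fell by 0.32 on polysomes and rose by 0.36 in subpolysomes (adjusted p = 0.0141 and 0.00698, limma). It was the 1 gene of the 98 tested in the pathway, members included, that was called in translational efficiency, at -0.68 (SE 0.12, adjusted p = 0.00949, limma), and without any one replicate that call was lost (adjusted p = 0.113, 0.0985, 0.143 and 0.0523). Of 6 aconitases and subunits of succinate dehydrogenase, 1 rose in subpolysomes and none was called on polysomes, and of 4 genes of ketone body metabolism 1 rose in subpolysomes. Of 9 genes of uptake, activation and the carnitine shuttle, 1 rose in each fraction.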

How the data were processed

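Polysomal and subpolysomal RNA of AML12 cells was measured on 16 one-colour Agilent arrays, 4 biological replicates of each of 4 groups, and groups were taken from the labels. The authors deposited, for each array, the spot intensity of the scanner software, after its background correction but before any scaling of arrays, and a series table of quantile-normalized log2 values. Per the labels and methods the software was Agilent Feature Extraction 10.7.7.1, whereas the file headers name 10.7.3.1. Each array had 44397 spots, and 20177 to 24953 of 39429 probes were well above background per array. No spot was saturated and no arrays were identical.

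In R 4.3.3 with limma 3.58.1 and data.table (version 1.17.8), outlier and uneven spots were left out (82 probe values went missing) and log2 intensities of repeated probes averaged. Probes that stood well above background on 2 or more arrays of any group were quantile normalized and averaged by gene name. Models with 4 group means were fitted to all genes, and calls were made at a Benjamini-Hochberg adjusted p under 0.05. The number of arrays limits the precision. Genes are named, and mm9 positions given, as in the scanner files. The fit was first tested on simulated data, and figures were drawn with matplotlib 3.10.9.

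The members and gene lists were chosen with earlier results of these data known. Per comparison, called members (up to 5 in each direction, to which Acsl1 was added as the sixth in subpolysomes) are given in full, other members by their changes, and of the other pathway genes up to 5 called in each direction, of which some are not reported here. Each slide held 1 array of every group. Deviations of same-numbered arrays correlated at -0.211 to 0.412, with 3 of 24 pairs over 0.1 and the highest between the polysomal arrays of replicate 4, so replicate numbers were not taken as pairs overall. Alternatives were scaling to the 75th percentile, within each fraction or to 7 spike-in probes, normexp (offset 50), 2 other filters, the brightest probe, the authors' log2 table, slide and replicate blocks, a plain t-test and leaving out each replicate from the normalized values. For translational efficiency, the plain t-test did use differences between same-numbered arrays. The leaving out of single polysomal arrays of replicate 4 was chosen after seeing the data. Protein sequences were not used here.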

Additional observations from a re-analysis of the deposited data

Results flagged for a closer look

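In each group of 4 arrays the sample farthest from the others was compared with the range of the group, for the members and the other named genes. Of 200 such groups 19 had a sample past the critical value of Dixon's test, and chance gives about 1 in 20. In 5 of the 19 the sample was the scramble polysomal array of replicate 4, always the highest. Its log2 signal was 8.0 for Acsl1 (others 7.65 to 7.67), 10.72 for Acsl4 (10.02 to 10.04), 10.26 for Cpt1a (9.21 to 9.38), 9.28 for Hadha (8.23 to 8.37) and 12.33 for Fh1 (11.45 to 11.56).

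The other 14 were low. In scramble polysomal RNA, replicate 3 was low for Acsl3 (3.77) and Etfa (11.70). In eIF6 shRNA polysomal RNA, replicate 3 was low for Echs1 (13.52) and Pdhb (6.91). In scramble subpolysomal RNA, replicate 1 was low for Ehhadh (1.09, not well above background), Idh3g (13.37) and Suclg1 (11.63). In eIF6 shRNA subpolysomal RNA, replicate 2 was low for Acsl3 (2.60), Decr1 (8.08), Dlat (9.10) and Prkaa2 (6.23), replicate 3 for Acsl4 (10.96), replicate 4 for Acads (9.07) and replicate 1 for Acox2 (7.93).

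The effect of the eIF6 shRNA differed between the fractions for 2 of the genes named. For Hsd17b10 the polysomal minus subpolysomal change was -0.678 (adjusted p = 0.00949, limma), a call lost when any one replicate was left out. For Eif6 itself it was -1.069 (adjusted p = 0.000145, limma).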

How the results depend on the processing

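The direction of the members' median relative to all genes was kept in both fractions under every alternative, from 0.111 to 0.289 on polysomes and from 0.258 to 0.333 in subpolysomes when each replicate was left out, while the counts of calls moved. Scaling to spike-in RNA left 0 members called in either fraction. Of all genes, 0.522% were called higher and 5.44% lower on polysomes, and 0.222% and 1.78% in subpolysomes. The mean log2 spike-in signal ran from 12.12 to 13.54 on scramble and 12.57 to 13.62 on eIF6 shRNA polysomal arrays. This scaling turned Echs1 (-0.147) and Idh3b (-0.134) on polysomes and Acsl1 (-0.011) in subpolysomes. It also moved the median of all genes to -0.474 on polysomes and -0.227 in subpolysomes. A filter on all 4 arrays of a group gave 5 members higher on polysomes and 12 in subpolysomes (13.2% and 14.4% of all genes), and the slide as a block gave 6 and 13 (11.8% and 13.4%). Scaling to the 75th percentile gave 10 in subpolysomes (11.2% of all genes), and a median position 0.794 above that of all genes in place of 0.487. A plain t-test was also run in place of the moderated test of limma, which the array methods name. It called 25 members higher and 1 lower in subpolysomes unadjusted, beside 18.8% and 19% of all genes. After Benjamini-Hochberg adjustment it called 14 and 1, beside 12.6% and 13.5%. On polysomes it called 4 higher unadjusted and 2 after adjustment, 1 of them among the 3, beside 14.5% and 7.93% of all genes. For translational efficiency it used differences between same-numbered arrays. There it called 1 higher and 2 lower unadjusted, beside 4.61% and 6.67% of all genes, and 0 after adjustment. Suclg1 was the 1 member called lower in translational efficiency with normexp and with the slide block. The brightest probe left 1 member on the subpolysomal side in scramble cells, beside 29.2% of all genes.

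With each replicate left out, 0 to 13 members were called higher on polysomes, beside 6.71% to 13.6% of all genes. In subpolysomes 1 to 16 were higher and 0 lower, beside 6.31% to 15.7% and 7.25% to 16.1%. In scramble cells 1 to 10 lay on the subpolysomal side, beside 24.3% to 29.3% of all genes. Without polysomal arrays of replicate 4, it was 15 (scramble), 2 (eIF6 shRNA) or 12 (both) on polysomes, and 10, 12 or 19 in subpolysomes, where both left out also gave 1 lower. Without the eIF6 shRNA array, 4 members lay on the subpolysomal side in eIF6 shRNA cells, beside 27.9% of all genes. The subpolysomal values themselves did not move, since only the shared estimate of the spread did. The cause of the other shifts was not tested. With the replicate number as a block, 3 members were higher on polysomes and 8 in subpolysomes, beside 10.8% and 11.7% of all genes. In translational efficiency 0 were called, beside 0.346% of all genes higher and 1.13% lower. In position 21 and 2 were called, beside 31.6% and 28.4%. Members dim in subpolysomes (Acsl3 and Ehhadh) have uncertain values there.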
